A study of Mus musculus with 11 samples.

Results

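Elf1 and Ets1 were set against each other in mouse regulatory T (Treg) cells, as single-base binding positions from chromatin immunoprecipitation and sequencing (ChIP-seq). Each of the 2 Treg lists gave as members its 10000 best-scoring positions, together 20000 of the 1059098 positions deposited for 5 libraries. A position was joint when a top 10000 position of the other factor lay within 200 bp of it, and otherwise Elf1-only or Ets1-only. Of the Elf1 members 2847 were joint and 7153 Elf1-only, and of the Ets1 members 2811 were joint and 7189 Ets1-only.

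The cells were CD4 T cells from lymph nodes and spleen of mice about 8 weeks old, taken ex vivo and sorted on a GFP reporter that marks Foxp3 expression. Foxp3-positive cells, called Treg here, gave 1 Elf1, 1 Ets1 and 1 Cbfb library and a Foxp3 list of 2886 peaks. The authors pooled the Foxp3 list from 3 libraries, 2 of them labelled as technical repeats of 1 replicate. The series also holds 2 Treg input libraries and no CD4 input. Foxp3-negative CD4 T cells, called CD4, gave 1 Elf1 and 1 Ets1 library, and a CD4 Cbfb library that was not analysed here. All cells carried the reporter, no treatment is named in the labels, and chromatin was fixed with formaldehyde and sheared by sonication. Animal numbers and sequencing depth are not stated in the labels, and each list of positions rests on 1 library. The differences below therefore have no check between replicates and come without p-values. Intervals are exact Clopper-Pearson 95% intervals for shares and cover counting error only, with neighbouring positions treated as separate counts.

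Elf1 and Ets1 both belong to the ETS family of transcription factors, whose shared DNA-binding domain recognises sequences around a GGAA core. Ets1 is highly expressed in resting T cells, binds DNA under autoinhibition that partner proteins such as Runx1 can relieve, and is needed in mice for normal Treg numbers and Foxp3 expression. Elf1 is a member of another branch of the family and is abundant in lymphocytes. Foxp3 is the factor that defines Treg cells, and Cbfb is the partner subunit that lets Runx proteins bind DNA stably.

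The top 10000 lists differed in how strongly positions stood out from the control. Median fold enrichment was 13.2 for Elf1 (quartiles 8.04 and 23.7) and 5.99 for Ets1 (3.60 and 10.37). The authors' fold and score describe a single position within its list. The lower bound of the fold was under 1 at 108 Elf1 positions and at 2232 Ets1 positions. Those Ets1 positions made up 14.2% of the joint (12.9 to 15.5) and 25.5% of the Ets1-only ones (24.5 to 26.5). Their part in the results was not tested on its own, but a setting without positions under 4-fold is given at the end. The fold itself was under 1 at 90 Ets1 positions and at 0 Elf1 positions. All members had a false discovery rate (FDR) of at most 0.00028 for Elf1 and 0.00046 for Ets1. At the limit of the Elf1 list 186 positions shared the score 6.78, 43 of them inside. For Ets1 the last position inside and the first outside both had a score of 6.14.

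Joint positions were 28.5% of the Elf1 members (27.6 to 29.4) and 28.1% of the Ets1 members (27.2 to 29.0). They formed 2775 pairs in which each position was the other's nearest. The same rule applied to the 2 CD4 libraries made 5022 Elf1 positions (50.2%) and 5051 Ets1 positions (50.5%) joint, forming 4999 pairs. The Treg maps thus overlapped less at this list length than the CD4 maps did, each being a comparison of 2 libraries of unknown depth. Ranking by fold enrichment in place of the score gave joint shares of 4.93 and 4.82%, and all positions with an FDR of at most 0.01 gave 7.26 and 17.8%.

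Joint positions had higher scores in both lists. Their median rank was 3489 among Elf1 positions, against 5630 for Elf1-only, and 3475 among Ets1 positions, against 5665 for Ets1-only. The joint share was 43% in Elf1 ranks 1 to 1000 (39.9 to 46.1), 40.1% in ranks 2001 to 3000 and 13.2% in ranks 9001 to 10000 (11.2 to 15.5). For Ets1 the same 3 shares were 41.7% (38.6 to 44.8), 41.1% and 13.4% (11.3 to 15.7). Both Treg curves were flat over the first 3000 ranks and then declined. In CD4 cells the Elf1 curve declined from the start, at 81.6% in ranks 1 to 1000 and 31.8% in ranks 9001 to 10000. Over the same 2 bins CD4 Ets1 had 55.8 and 32.4%, with its highest value, 69.9%, in the bin between 1000 and 2000. The very top differed between the factors: among ranks 1 to 100, 44% of Elf1 (34.1 to 54.3) and 28% of Ets1 positions (19.5 to 37.9) were joint in Treg cells, and 93% (86.1 to 97.1) and 31% (22.1 to 41.0) in CD4 cells.

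**Figure D1:**
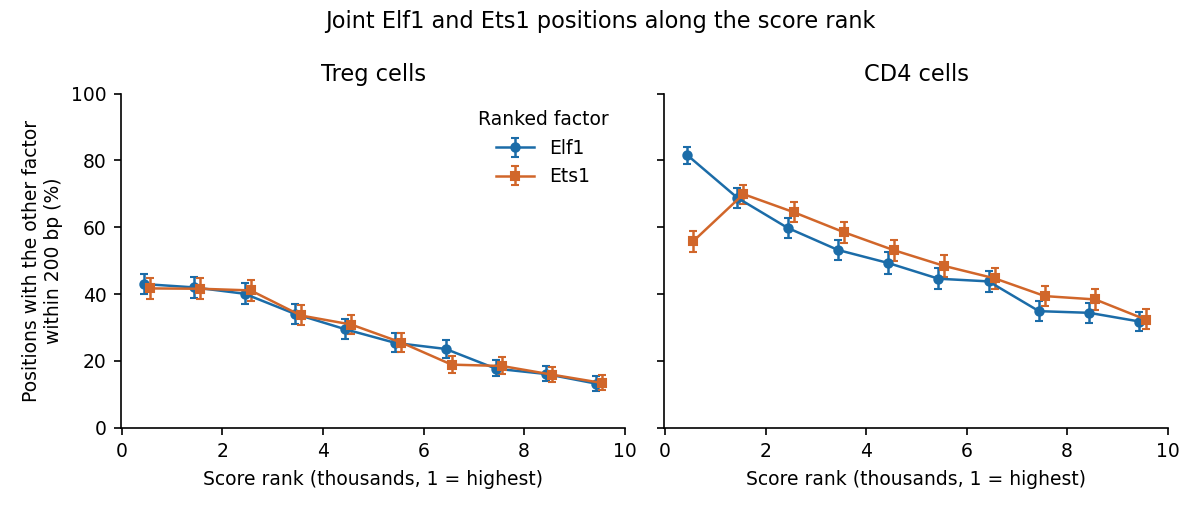
Share of positions (%, points with 95% Clopper-Pearson intervals) that had a top 10000 position of the other factor within 200 bp, by score rank in bins of 1000, for Elf1 (circles) and Ets1 (squares) in Treg cells (left) and CD4 cells (right). The 2 Treg curves lie on each other from about 43 to 13%, while in CD4 cells Elf1 starts at 81.6% and Ets1 at 55.8%.

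Within the pairs, a high rank for one factor went with only a slightly better rank for the other. Both members of a pair are in the top 10000 by definition, so partners of lower rank do not enter these values. In the 2775 pairs the ranks of the 2 factors had a Spearman correlation of 0.08 and their folds one of 0.36, both over positions of the same 2 libraries and given as descriptions. Of the 425 pairs with an Elf1 rank up to 1000, 91 also had an Ets1 rank up to 1000. The median Ets1 rank in those 425 pairs was 2861, and in pairs with an Elf1 rank over 9000 it was 3743. Fold enrichment was higher for Elf1 than for Ets1 in 2382 pairs, with medians of 15.5 and 6.44. At equal rank the fold did not separate joint from single positions in a single direction. The joint median was the higher one in 5 of 10 rank bins for Elf1 and in 4 of 10 for Ets1, equal medians not being counted as higher. For Ets1 the joint median was the lower one in ranks 1 to 1000, at 11.1 against 14.4, and the higher one in ranks 9001 to 10000, at 4.66 against 4.39.

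Many single positions had a weaker partner beyond the top 10000. Of the Elf1-only positions, 1871 (26.2%, 25.1 to 27.2) had an Ets1 position with an FDR of at most 0.01 within 200 bp, and 3051 (42.7%) had one at any FDR. The partner's median rank was 40744. Of the Ets1-only positions, 2196 (30.5%, 29.5 to 31.6) had an Elf1 position with an FDR of at most 0.01 and 2381 (33.1%) had one at any FDR, at a median rank of 43073. The lists that supplied these partners differed in length, with 157731 Elf1 and 61761 Ets1 positions at that FDR. No position of the other factor at any FDR lay within 1 kb of 2176 Elf1-only positions (21.8% of the Elf1 members, 21.0 to 22.6) and of 2548 Ets1-only positions (25.5% of the Ets1 members, 24.6 to 26.3). Both classes ranked low on the whole, with median ranks of 7060 and 7056, though single members ranked near the top.

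Within pairs the 2 factors lay close together but seldom on the same base. The median distance was 67 bp in Treg cells (quartiles 30 and 112) and 42 bp in CD4 cells (18 and 76). Of the Treg pairs 245 (8.83%) lay within 10 bp, 21 of them on the same base, and of the CD4 pairs 796 (15.9%). Within 50 bp lay 38.7% of the Treg pairs and 57.5% of the CD4 pairs. Ets1 lay to the left of Elf1 in 1359 Treg pairs and to the right in 1395, so the genome's forward strand showed no side. Pairs of high rank were not much tighter: the median was 67 bp in the 147 pairs with a rank sum of up to 2000 and 86 bp in the 193 pairs with a rank sum over 14000.

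The 200 bp limit fell on the outer part of this distribution. There were 1057 Treg pairs at 0 to 49 bp, 303 at 150 to 199 bp, 187 at 200 to 249 bp and 37 at 400 to 449 bp. Between 1000 and 1999 bp there were 6.5 pairs per 50 bp. Only mutual nearest pairs were counted, so positions with a closer partner are missing there and this value is not a background level. Just inside the limit, at 176 to 200 bp, lay 127 pairs, and just outside, at 201 to 225 bp, lay 112. In CD4 cells pairs fell off faster, with 2831 at 0 to 49 bp, 226 at 150 to 199 bp and 120 at 200 to 249 bp.

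**Figure D2:**
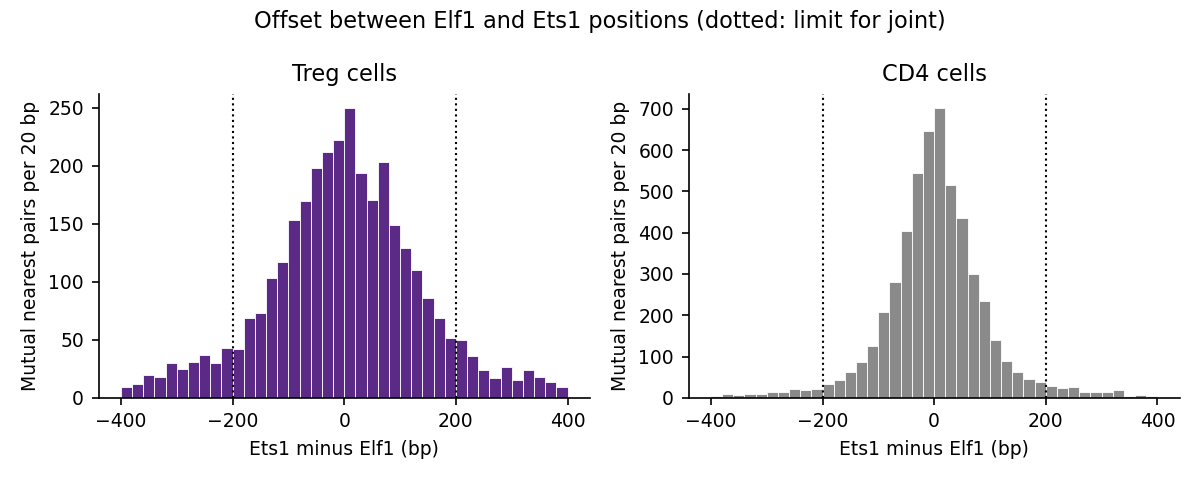
Number of mutual nearest Elf1 and Ets1 pairs per 20 bp (bars) against the signed distance in bp, Ets1 minus Elf1 on the forward strand, in Treg cells (left) and CD4 cells (right), with separate vertical scales. The Treg distribution is broader, with a median absolute distance of 67 bp against 42 bp for pairs within the dotted 200 bp limits.

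Most Treg pairs had a counterpart pair in CD4 cells. This held for 1865 of them (67.2%), and at these places the median distance was 66 bp in Treg and 43 bp in CD4 cells. The Treg distance was the larger one at 1124 places and the CD4 distance at 727. Between the Treg and the CD4 library the Elf1 position moved by a median of 24 bp and the Ets1 position by 51 bp. Counterparts were matched by the nearest Elf1 position within 200 bp, and the Ets1 shift had no such limit. The Elf1 and Ets1 shifts are therefore not on equal terms, and their difference was not interpreted. Where both distances were at least 50 bp, Ets1 lay on the same side of Elf1 in both cell types at 418 of 552 places (75.7%). How exactly a single position is placed was not measured, so placement error and a difference in spacing cannot be told apart here.

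Elf1 and Ets1 positions were spaced differently within their own lists. A second top 10000 position of the same factor lay within 1 kb of 20.9% of joint Elf1 positions (19.5 to 22.5) and of 14.3% of Elf1-only positions (13.5 to 15.2). For Ets1 these shares were 23.2% (21.6 to 24.8) and 24.95% (23.96 to 25.97), with overlapping intervals. The joint over single ratio was 1.46 for Elf1 and 0.928 for Ets1. For Ets1 it turned to 1.06 with neighbours within 50 kb and to 1.08 without positions under 4-fold. The 4-fold limit was chosen after the values had been seen. Neither these shares nor the distances below were matched on score rank, and joint positions ranked higher than single ones. The median distance to the next Elf1 position was 13721 bp for joint and 26367 bp for Elf1-only positions. For Ets1 it was 14191 bp for joint and 14313 bp for Ets1-only positions. The closest neighbours sat at different distances too: for Elf1 628 positions had theirs at 200 to 299 bp and 340 at 300 to 399 bp, while for Ets1 the counts were 332 and 563. No 2 positions of a list lay closer than 199 bp. Of the Elf1-only positions with a neighbour within 1 kb, 31.0% (28.2 to 33.9) had a joint one as the nearest. For joint Elf1 positions this share was 48.2% (44.1 to 52.3), and for all Elf1 members 37.3%. Of the Ets1-only positions 24.6% (22.7 to 26.7) had a joint one, against 31.3% (27.8 to 35.1) of joint Ets1 positions and 26.4% of all Ets1 members.

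When all members at most 1 kb apart were chained into regions, 3339 regions held both factors, 5767 only Elf1 and 5208 only Ets1. At least 3 positions were present in 998 of the regions with both, in 19 with Elf1 alone and in 98 with Ets1 alone. A region with both holds at least 2 positions by definition, whereas 5494 regions with Elf1 alone and 4816 with Ets1 alone held 1. The 3 counts are therefore not on equal terms. Both factors were present without any joint position in 657 regions. The 2 regions with the most positions, named after the counts had been seen, held 12 each, 10 for Ets1 and 2 for Elf1. They lay on chromosome 11 between 87568477 and 87573204, where a Foxp3 peak was present, and between 106644136 and 106650475, where none was. The third, on chromosome 19 between 5798749 and 5803464, held 9 Ets1 positions and 1 Elf1 position.

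Chromosome X stood apart from the numbered chromosomes. Joint positions were 13.3% of the 218 Elf1 positions on X (9.09 to 18.5) and 10.5% of the 285 Ets1 positions (7.22 to 14.7). Over the numbered chromosomes the shares were 28.7 and 28.6%. Positions on X ranked lower, with medians of 7025 and 6774. If X positions had been joint as often as all positions of their rank bin, 23.3 and 23.7% would have been joint, which is above both intervals. On the numbered chromosomes the observed interval held this rank-based value on 19 of 19 chromosomes for Elf1 and on 16 of 19 for Ets1. Chromosome 4 had the highest joint share for both factors, at 32.7 and 33.3%.

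The shortfall on X was steeper for joint than for single positions. Joint Elf1 positions numbered 1.74 per 10 Mb on X (exact Poisson 95% interval 1.17 to 2.50), against 11.3 per 10 Mb on the numbered chromosomes, and Elf1-only positions 11.3 (9.79 to 13.1) against 28.1. Ets1-only positions numbered 15.3 per 10 Mb on X (13.5 to 17.3), against 27.9. Positions on X also recurred less in CD4 cells: 35.3% of the Treg Elf1 positions on X (29.0 to 42.1) and 64.6% of those on the numbered chromosomes had a top 10000 CD4 Elf1 position within 200 bp. For Ets1 the shares were 20.7% (16.1 to 25.9) and 46.9%. Among X positions that did recur, 23 of 77 Elf1 positions (29.9%, 19.97 to 41.4) and 20 of 59 Ets1 positions (33.9%, 22.1 to 47.4) were joint, against 36.9 and 46.0% of the recurring positions on the numbered chromosomes. The joint share in the CD4 lists was also lower on X, at 36.5% for Elf1 and 39.4% for Ets1, against 50.5 and 50.8%. The sex of the animals is not given in the sources used here. Foxp3 peaks, described next, were at 2.75% of the Elf1 and 3.16% of the Ets1 positions on X, against 16.0 and 18.0% of those on the numbered chromosomes. On unplaced contigs, 21 of 38 Elf1 positions and 20 of 45 Ets1 positions were joint.

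**Figure D3:**
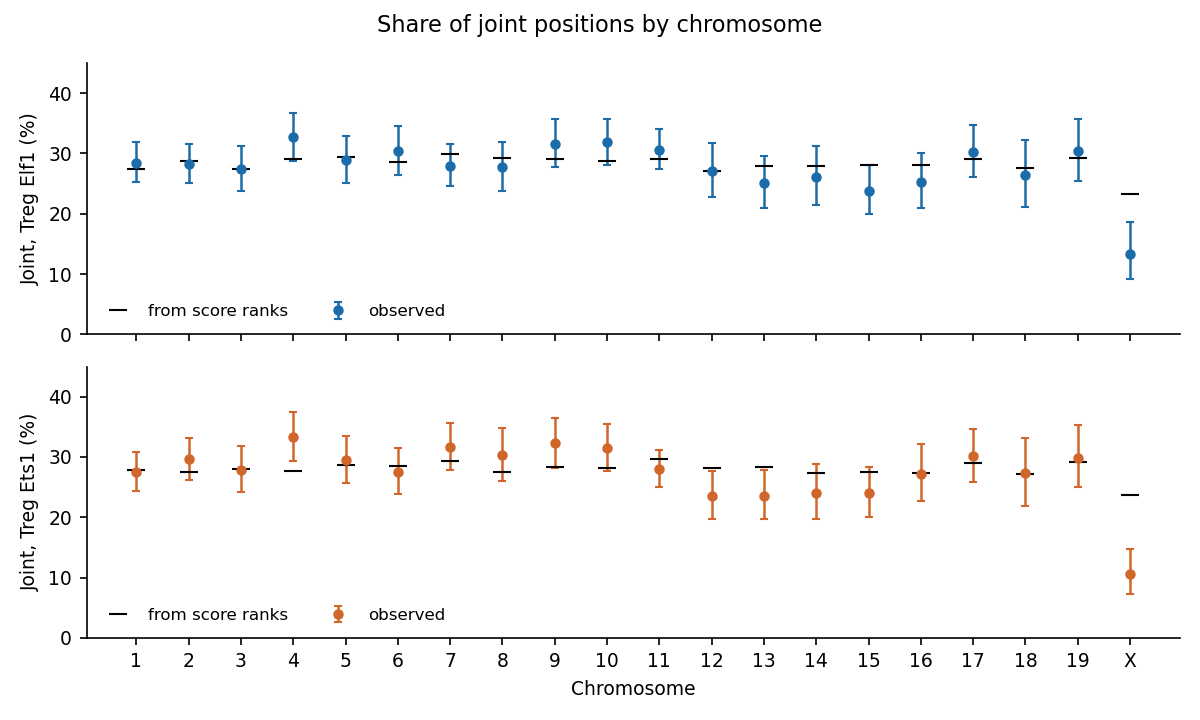
Share of Treg Elf1 (top) and Treg Ets1 (bottom) members that were joint (%, circles with 95% Clopper-Pearson intervals) on each chromosome, with the share their score ranks alone would give (dashes). Chromosome X lies at 13.3 and 10.5%, below the dashes at 23.3 and 23.7%.

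Foxp3 peaks were more common at joint positions than at single positions of the same score. A member was counted at a Foxp3 peak when it lay within 200 bp of the peak's 200 bp interval. This held for 15.6% of all Elf1 members and 17.5% of all Ets1 members, and for 1.57 and 1.32% of all deposited positions of the 2 lists. Joint Elf1 positions reached 34.6% (32.8 to 36.3), and Elf1-only positions weighted to the same rank bins 9.35%, a ratio of 3.70. Joint Ets1 positions reached 34.7% (32.9 to 36.5), and rank-weighted Ets1-only positions 14.2%, a ratio of 2.45. Before weighting, the single shares were 8.08% for Elf1-only (7.46 to 8.74) and 10.8% for Ets1-only (10.1 to 11.6). In each of the 10 rank bins of both factors the joint share was higher, and the 2 intervals did not overlap. The ratios were 8.85 for Elf1 and 4.36 for Ets1 with the full lists up to an FDR of 0.01, and 2.63 and 4.28 with ranking by fold enrichment. The full lists were also cut into 10 bins, so their match was coarser, and the lists ranked by fold were matched on that rank.

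The Foxp3 share was also followed along each factor's own rank. For joint Elf1 positions it showed no steady decline, with 29.3% in ranks 1 to 1000 (25.04 to 33.9), 40.7% in the bin between 1000 and 2000 (36.0 to 45.6) and 30.3% in ranks 9001 to 10000 (22.6 to 38.9). For joint Ets1 positions it was 43.6% in ranks 1 to 1000 (38.8 to 48.6), 23.3% in ranks 6001 to 7000 (17.5 to 30.0), its lowest bin, and 31.3% in ranks 9001 to 10000 (23.6 to 39.9), an interval that overlaps those of its first bin and of the last Elf1 bin. Ets1-only positions had 20.9% in ranks 1 to 1000 (17.7 to 24.5) and 3.93% in ranks 9001 to 10000, and Elf1-only positions 9.12% (6.89 to 11.8) and 3.34%. Pairs were also sorted by both ranks. With both ranks up to 5000, 39.6% of 1259 pairs were at a Foxp3 peak (36.9 to 42.4). With Ets1 up to 5000 and Elf1 beyond it the share was 36.8% (32.9 to 40.8), and with Elf1 up to 5000 and Ets1 beyond it 28.0% (24.4 to 31.8). With both beyond 5000 it was 25.3% (20.7 to 30.4).

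**Figure D4:**
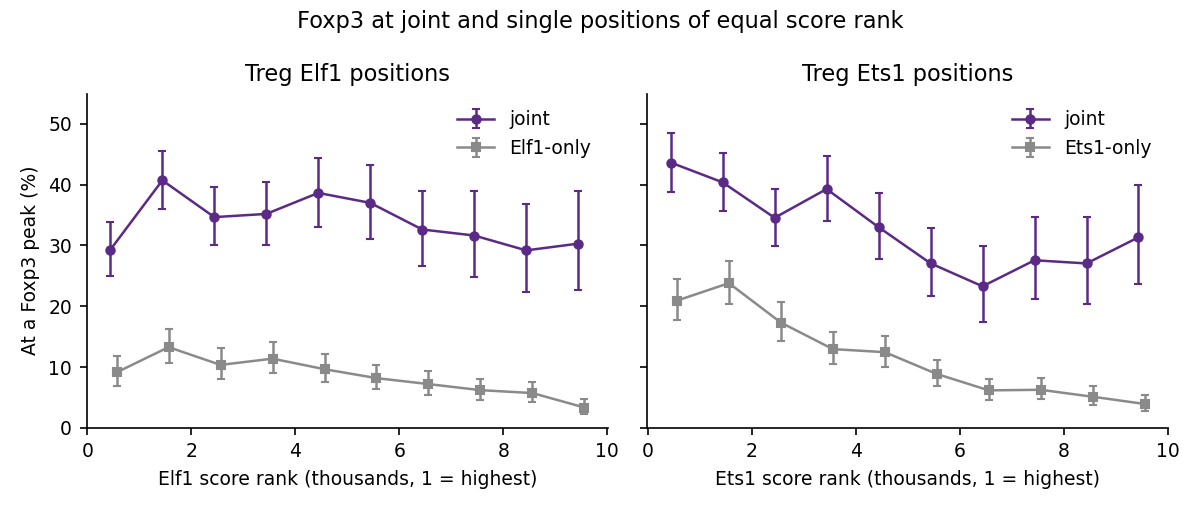
Share of Treg Elf1 (left) and Treg Ets1 (right) members at a Foxp3 peak (%, points with 95% Clopper-Pearson intervals) by score rank in bins of 1000, for joint (circles) and single (squares) positions. Joint positions lie above single ones in all 10 bins of both factors, from 29.3 against 9.12% for Elf1 and 43.6 against 20.9% for Ets1 in the first bin.

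The Foxp3 share also followed how strong the missing partner was. Elf1 members whose best Ets1 partner within 200 bp was outside the top 10000 but had an FDR of at most 0.01 were at a Foxp3 peak in 15.3% of cases (13.7 to 17.0). Those with an Ets1 partner of higher FDR had 10.2% (8.50 to 12.0), those with one only between 200 bp and 1 kb 7.58% (6.44 to 8.85), and those with none within 1 kb 1.19% (0.782 to 1.75). Weighting to the ranks of the joint positions gave 15.4, 10.4, 8.76 and 1.75%. Ets1 members had 20.6% (18.9 to 22.3), 15.1% (10.3 to 21.1), 9.60% (8.42 to 10.9) and 3.22% (2.57 to 3.98) in the same 4 classes of Elf1 partner, and 22.1, 19.5, 11 and 6.39% after weighting. Single positions therefore were a mixed group, and those with a weak partner at hand lay nearer to the joint ones.

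Within the 200 bp limit, the Foxp3 share was lowest among the pairs closest to it. Of all 2775 pairs 34.9% (33.1 to 36.7) had at least 1 member at a Foxp3 peak. The share was 40.4% at 11 to 25 bp (35.2 to 45.8), 37.4% at 76 to 100 bp (32.4 to 42.5) and 18.9% at 176 to 200 bp (12.5 to 26.8). Pairs on nearly the same base, within 10 bp, had 29.0% (23.4 to 35.1). Beyond the limit, pairs at 201 to 300 bp had 19.2% (15.1 to 24.0), those at 401 to 1000 bp 28.2% (22.2 to 34.7) and those between 1 and 2 kb 23.8% (16.8 to 32.1). Members further apart cover a wider stretch, and the median rank sum was 7617 within 200 bp and 10110 at 401 to 1000 bp. Shares at different distances are therefore not on equal terms. The median distance was 64 bp in pairs at Foxp3 peaks and 69 bp in the others.

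At Foxp3 peaks the peak centre lay slightly closer to Elf1. For the 923 pairs with both members within 200 bp of 1 peak, the centre was a median of 45 bp from the Elf1 position and 56 bp from the Ets1 position. It was closer to Elf1 in 519 pairs, closer to Ets1 in 396 and equally far in 8, and it lay between the 2 in 347 (37.6%). Where the factors were at least 100 bp apart, it lay between them in 148 of 237 pairs. Single positions at Foxp3 peaks were a median of 59 bp from the centre for Elf1-only and 61 bp for Ets1-only. The fold enrichment of the Elf1 positions was higher, and position error in the weaker Ets1 list was not measured.

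Counted from the Foxp3 side, 1075 of 2886 peaks (37.2%, 35.5 to 39.0) had top 10000 positions of both factors, out of 1570 (54.4%) with Elf1 and 1760 (61.0%) with Ets1. A further 495 had Elf1 without Ets1, 685 Ets1 without Elf1 and 631 neither. Among the 495 peaks with Elf1 alone, 323 had an Ets1 position at an FDR of at most 0.01, and among the 685 with Ets1 alone, 492 had an Elf1 position at that FDR. Top 10000 CD4 Elf1 positions were present at 59.2% of all Foxp3 peaks, at 74.9% of those with Treg Elf1 alone (70.9 to 78.7) and at 33.6% of those with Treg Ets1 alone (30.0 to 37.3). Top 10000 CD4 Ets1 positions were present at 70.9% of all peaks, and the 2 kinds were closer, at 66.1% (61.7 to 70.2) and 73.4% (70.0 to 76.7). A top 10000 Cbfb position was present at 11.1% of all peaks, 14.9% of those with both factors (12.8 to 17.2), 5.86% with Elf1 alone (3.96 to 8.31) and 13.1% with Ets1 alone (10.7 to 15.9).

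The CD4 maps, which the choice of members did not use, differed between the 3 classes. A joint position has a Treg position of the other factor beside it by definition, so recurrence of that partner in CD4 cells enters the contrast. Rank weighting matched only the member's own factor. Of the Elf1 members 63.9% had a top 10000 CD4 Elf1 position and 41.6% a CD4 Ets1 position within 200 bp. CD4 Elf1 was at 82.7% of joint Elf1 positions (81.3 to 84.1), 56.4% of Elf1-only positions (55.3 to 57.6) and 71.1% of Elf1-only positions after rank weighting. CD4 Ets1 was at 75.1% of joint (73.5 to 76.7), 28.3% of Elf1-only (27.2 to 29.3) and 37.0% after weighting. Of the Ets1 members 31.9% had a CD4 Elf1 and 46.2% a CD4 Ets1 position. CD4 Elf1 was at 81.6% of joint Ets1 positions (80.1 to 83.0), 12.5% of Ets1-only positions (11.8 to 13.3) and 15.6% after weighting. CD4 Ets1 was at 75.3% of joint (73.7 to 76.9), 34.8% of Ets1-only (33.7 to 35.9) and 47.2% after weighting. Sites where the Treg libraries showed a single factor mostly lacked the other one among the top 10000 of CD4 cells too, and this was clearest for Elf1 at Ets1-only sites. In part they lacked both: neither CD4 factor was at 40.1% of Elf1-only and 61.3% of Ets1-only positions. Of the 4036 Elf1-only positions with CD4 Elf1, 1769 also had CD4 Ets1. Of the 2501 Ets1-only positions with CD4 Ets1, 623 also had CD4 Elf1.

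Some sites with a single factor in Treg cells had both in CD4 cells. These were 1769 Elf1-only positions (24.7%, 23.7 to 25.7) and 623 Ets1-only positions (8.67%, 8.03 to 9.34), against 66.7 and 65.6% of the joint Elf1 and Ets1 positions. Neither CD4 factor was present at 8.89% of joint Elf1 positions and 40.1% of Elf1-only ones, or at 8.72% of joint Ets1 positions and 61.3% of Ets1-only ones. The Foxp3 share was higher at joint positions within each of these classes, with overlapping intervals in the 2 classes named last. Where CD4 cells had both factors, 38.9% of joint Elf1 positions (36.7 to 41.2) and 15.9% of Elf1-only positions (14.3 to 17.7) were at a Foxp3 peak. For Ets1 the gap was narrower, at 39.6% (37.3 to 41.9) and 31.6% (28.0 to 35.4). Where CD4 cells had neither, the shares were 22.5% (17.5 to 28.2) and 3.42% (2.79 to 4.15) for Elf1, and 21.6% (16.6 to 27.3) and 4.58% (3.98 to 5.24) for Ets1. Where they had Elf1 alone, joint Ets1 positions had 21.4% (17.7 to 25.5) and Ets1-only positions 15.8% (11.7 to 20.6), and where they had Ets1 alone, joint Elf1 positions had 36.0% (29.9 to 42.4) and Elf1-only positions 24.6% (19.4 to 30.4).

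Top 10000 Cbfb positions were sparse in all classes, and Cbfb positions of lower score were not counted. Of all Elf1 members 3.55% and of all Ets1 members 4.39% had a top 10000 Treg Cbfb position within 200 bp. The share was 7.73% for joint Elf1 (6.77 to 8.77) and 1.89% for Elf1-only positions (1.58 to 2.23). It was 7.72% for joint Ets1 (6.76 to 8.77) and 3.09% for Ets1-only positions (2.70 to 3.51). After rank weighting the single shares were 2.27% for Elf1-only and 4.19% for Ets1-only.

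**Figure D5:**
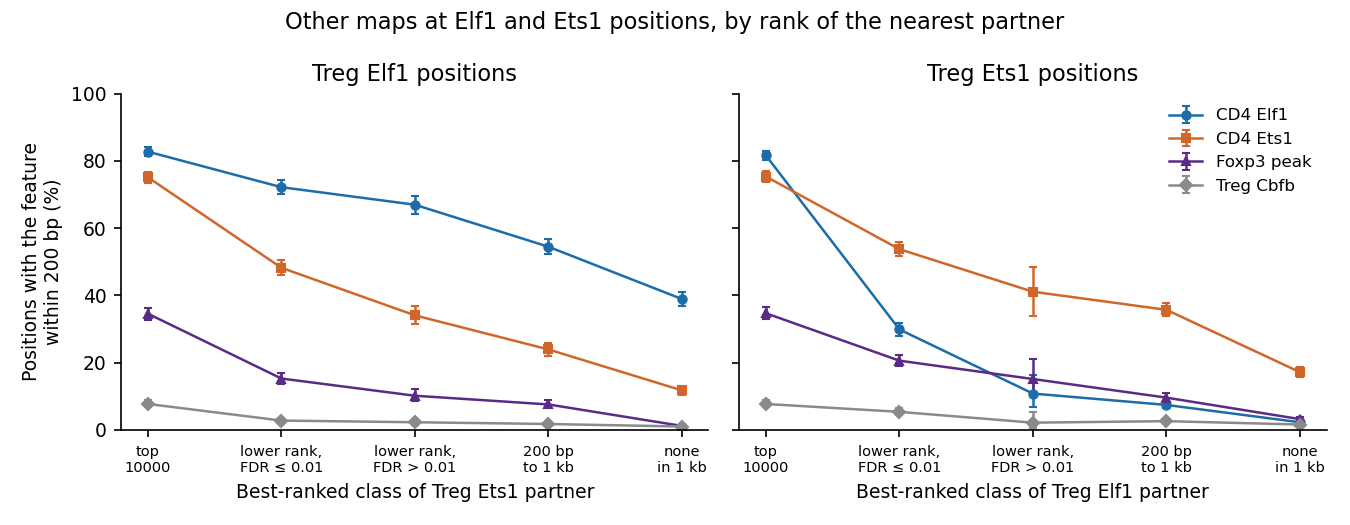
Share of Treg Elf1 (left) and Treg Ets1 (right) members (%, points with 95% Clopper-Pearson intervals) with a top 10000 CD4 Elf1, CD4 Ets1 or Treg Cbfb position or a Foxp3 peak within 200 bp, by the best-ranked class of partner in the other Treg list. Every curve is highest where the partner is in the top 10000, and CD4 Elf1 at Ets1 members drops most, to 29.9% at the next class and 2.28% where no partner lies within 1 kb.

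The pairs with the lowest rank sums were of 2 kinds. Positions are in mm9, and no gene names or sequences of that build were used here. On chromosome 4, Elf1 at 70039221 (rank 1) and Ets1 at 70039222 (rank 3) were only 2.72-fold and 2.25-fold enriched. On chromosome 13, both factors at 77578252 (ranks 37 and 8) were 3.59-fold and 3.41-fold enriched. On chromosome 9, Elf1 at 24346555 (rank 16) and Ets1 at 24346552 (rank 91) were 2.38-fold and 1.65-fold enriched. All 3 also had CD4 Elf1, CD4 Ets1 and Treg Cbfb positions within 3 bp, the Cbfb ones at ranks 2, 5 and 13, and the nearest Foxp3 peaks were 6973627, 3703590 and 654601 bp away. They were also the 3 best pairs over 10 kb from any Foxp3 peak.

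The other 2 pairs had higher folds. On chromosome 17, Elf1 at 57150741 (rank 28) had a fold of 39.4 (lower bound 18.8) and Ets1 at 57150787 (rank 182) one of 5.38 (2.30). On chromosome 13, Elf1 at 23654335 (rank 7) had a fold of 92.6 (39.0) and Ets1 at 23654252 (rank 255) one of 93.9 (16.9). CD4 Elf1 positions of ranks 41 and 50 and CD4 Ets1 positions of ranks 72 and 657 lay there too, with no Cbfb position within 1 kb.

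Pairs of low fold for both factors were few, and most did not share the Cbfb position of the first 3. A low fold for Ets1 alone was more common. The lower quartile of fold was 4.15 at joint Ets1 positions and 9.44 at joint Elf1 positions. Over all 2775 pairs, 49 (1.77%, 1.31 to 2.33) were under 4-fold for both factors. Of these 13 had a top 10000 Cbfb position within 10 bp, 4 lay within 10 bp in all 5 lists, and their median offset was 29 bp. They were 19 of the 245 pairs within 10 bp (7.76%, 4.73 to 11.8) and 7 of the 20 pairs on contigs. Foxp3 peaks were at 9 of the 49 and at 959 of the other 2726 pairs (35.2%, 33.4 to 37.0). Without the weak pairs, those within 10 bp had a Foxp3 share of 30.5% (24.6 to 37.0) and those at 11 to 25 bp one of 40.9% (35.6 to 46.3), with overlapping intervals, whereas over all pairs the intervals of these 2 classes did not overlap.

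The 3 best pairs at Foxp3 peaks had top 10000 positions in all 4 Elf1 and Ets1 libraries. On chromosome 8, Elf1 at 87502691 (rank 381, 23.3-fold) and Ets1 at 87502595 (rank 21, 12.9-fold) lay at the peak from 87502661 to 87502861. On chromosome 6, Elf1 at 117850331 (rank 298, 18.9-fold) and Ets1 at 117850357 (rank 133, 14.0-fold) lay inside the peak from 117850242 to 117850442. On chromosome 18, Elf1 at 32399909 (rank 162, 26.5-fold) and Ets1 at 32399877 (rank 292, 5.99-fold) lay inside the peak from 32399756 to 32399956. CD4 Elf1 ranks there were 122, 418 and 309, and CD4 Ets1 ranks 43, 839 and 1415.

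The highest Elf1-only positions with no Ets1 position of any FDR within 1 kb in Treg cells were among the strongest Elf1 sites in CD4 cells. They lay on chromosome 13 at 18809125 (rank 4, 102-fold), chromosome 9 at 65756648 (rank 17, 61.2-fold), chromosome 11 at 98300297 (rank 19, 64.7-fold), chromosome 17 at 25910682 (rank 30, 81.7-fold) and chromosome 16 at 38347091 (rank 42, 42.1-fold). Their CD4 Elf1 ranks were 14, 20, 21, 63 and 137. All 5 had a CD4 Ets1 position within 83 bp, at ranks 635, 3387, 4216, 4117 and 3328 and with folds of 4.18 to 8.50, so the absence of Ets1 was not seen in the CD4 library.

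The highest Ets1-only positions with no Elf1 position within 1 kb were among the strongest Ets1 sites in CD4 cells. They lay on chromosome 15 at 96530092 (rank 16, 35.6-fold), chromosome 11 at 48667126 (rank 38, 55.3-fold) and 68932360 (rank 42, 14.0-fold), chromosome 16 at 38353439 (rank 61, 166-fold) and chromosome 13 at 21261645 (rank 83, 29.2-fold). Their CD4 Ets1 ranks were 82, 24, 38, 48 and 177. The nearest CD4 Elf1 positions had ranks of 15451, 17743, 23111, 80915 and 26065, outside the top 10000 in each case. They lay 159, 108, 4724, 253 and 50 bp away and had folds of 12.7, 10.5, 8.28, 3.87 and 5.63, so 4 of the 5 sites had a CD4 Elf1 position of lower rank within 253 bp. A Cbfb position of rank 30310, 28.7-fold enriched, lay 15 bp from the one on chromosome 16. None of these 10 positions lay at a Foxp3 peak, and the nearest was 18871 bp away. The Elf1-only and the Ets1-only position on chromosome 16 were 6348 bp apart, and no position of any FDR for the other factor lay closer to either than 4420 bp.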

How the data were processed

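Treg Elf1 and Treg Ets1 ChIP-seq positions were compared, with the CD4 Elf1, CD4 Ets1, Treg Cbfb and Foxp3 lists as other readouts. The submitters' processing notes name Bowtie 0.12.7 and the build mm9. Per the file headers, the authors deposited for each position a score, an FDR (q-value) and a fold enrichment with its lower bound. The caller, its thresholds, its control and the depth are not given in the sources used here, so scores rank positions within a list only. The authors' Foxp3 list has intervals without a score.

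Positions were sorted by score, ties by chromosome and coordinate. Score matching in the main setting used 10 bins of 1000 ranks, with the share of single positions in each bin weighted by the number of joint positions there. Chromosome lengths were the highest coordinate in any list. Named positions were the best-ranked of each class: 5 pairs by rank sum, 3 at Foxp3 peaks, 3 over 10 kb from one, and 5 single positions per factor with nothing of the other factor within 1 kb. The members and lists were chosen with earlier results of these data known. Functions were tested on simulated data. Motif and gene-list counts, which needed mm9 sequence and annotation, were not run. Python 3.11.15, numpy 2.4.6, pandas 2.3.3, scipy 1.17.1 and matplotlib 3.10.9 were used.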

Additional observations from a re-analysis of the deposited data

How the results depend on the processing

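Joint positions kept a Foxp3 share above that of matched single positions in both lists under the 14 other settings tried for it. Matching was by score rank, but by fold enrichment in the settings that name it. Each list was cut into equal bins, so bins of the longer lists held more ranks and matched more coarsely. The joint over single ratio ran from 2.63 to 8.85 for Elf1 and from 1.86 to 4.36 for Ets1. The main ratios were 3.70 and 2.45, the joint shares 28.5 and 28.1%, and the median offset 67 bp. For Elf1 and then Ets1, the ratios were 2.94 and 1.86 with the top 5000, 4.47 and 3.04 with the top 20000, 8.85 and 4.36 with every position up to an FDR of 0.01, and 2.63 and 4.28 when ranked by fold enrichment. They were 3.0 and 2.23 with 100 bp as the limit for joint, 2.27 for Ets1 with 500 bp, 3.96 and 2.60 with Foxp3 within 100 bp, 3.24 and 2.15 within 500 bp, and 4.11 and 3.06 when matched on fold enrichment. Without positions under 4-fold, a setting added after the data had been seen, Elf1 had 3.35.

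The joint share depended on list length, ranking and distance. It was 26.1 and 25.7% with the top 5000, 22.6 and 22.2% with the top 20000, 7.26 and 17.8% with the FDR lists, 4.93 and 4.82% when ranked by fold enrichment, 19.3 and 19.3% within 100 bp, 36.3 and 36.3% within 500 bp, and 24.2 and 23.9% without positions under 4-fold. The median offset was 64 bp with the top 5000, 75 bp with the FDR lists, 57 bp when ranked by fold enrichment, and 45 and 83 bp with limits of 100 and 500 bp, which set it in part.

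For CD4 Ets1 at Elf1 members the joint over matched single ratio was 2.03, and 1.62 with the top 20000 of the other library and 1.95 without positions under 4-fold. For CD4 Elf1 at Ets1 members it was 5.24, and 2.75 and 5.53. The other ratios that moved with the top 20000 were 1.14 for CD4 Elf1 at Elf1 members (main 1.16) and 1.46 for CD4 Ets1 at Ets1 members (main 1.60). Cbfb at Elf1 members had 2.75 without positions under 4-fold (main 3.41). The ratio of joint to single positions with a neighbour was not matched on rank. For Elf1 it was 1.46 within 1 kb, 1.35 within 10 kb and 1.18 within 50 kb. For Ets1 it was 0.928 within 1 kb, but 1.06 within 50 kb and 1.08 without positions under 4-fold, with the opposite sign. Where a cause is not named, the cause was not tested. Keeping 1 position per 200 bp, numbered chromosomes only, 5 or 20 bins and mutual pairs left the values they touched inside the main intervals. With 1 library per factor no library could be left out, and depth is unknown. No paired analysis was possible because each group compared has 1 library, so the groups share fewer than 2 replicate numbers.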
